A study of Mus musculus with 6 samples.

Results

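The genes described are 10 RNA-binding protein genes tied to lens development, to cataract or to the RNA granules in which these proteins gather: Caprin2, Caprin1, Tdrd7, Celf1, Rbm24, Rbm5, Stau1, Stau2, G3bp1 and Ddx6. They were picked by symbol from the 22298 entries of the deposited expression table, and all 10 are among the 12001 genes tested. Newborn mouse lenses labelled Fyco1-/- were compared with WT lenses, all of strain C57BL/6 and at postnatal day 0. Each genotype had 3 libraries (A, B and C), and each library was a biological replicate made from the total RNA of 10 pooled lenses. Fyco1 encodes an adaptor that couples autophagosomes to microtubule motors, and the comparison asks what its disruption changes in the lens transcriptome. The labels state neither how the Fyco1 allele was made nor whether it is lost in every cell, and they give no sex or litter for the pools, so an error over libraries is an error over pools of lenses. Levels are in FPKM, that is fragments per kilobase of gene scaled to the mapped reads, so genes of different length can be set side by side. Comparisons between libraries depend on this scaling, and crystallin genes held 70.2% to 71.7% of the summed FPKM. Results under other scalings are given below.

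A messenger RNA is bound from its synthesis on by proteins that set how it is spliced, where it is carried, how long it lasts and how often it is translated. Many of these proteins gather in membrane-free granules, of which processing bodies (P-bodies) hold silenced transcripts and decay enzymes and stress granules hold stalled translation complexes. Lens fibre cells depend on such control because they lose their nuclei and must then live on the transcripts they already hold, and loss of Tdrd7, Celf1, Rbm24 or Caprin2 disturbs the lens of mice or other vertebrates.

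The promoters of the 3 genes whose transcripts passed the test are shown because they are the regulatory sequence closest to a changed transcript. Each runs from 250 bases before to 50 bases after the annotated start, is read 5′ to 3′ on the strand of the gene, and comes from RefSeq on build GRCm38.p6, where 8 of the 10 genes matched. Capitals mark a GC box (GGGCGG) or a CCAAT box (CCAAT) on either strand. The sequences are of Caprin2 (chr6:148896188-148896487, minus strand), Celf1 (chr2:90940147-90940446, plus strand) and G3bp1 (chr11:55469502-55469801, plus strand).
Caprin2: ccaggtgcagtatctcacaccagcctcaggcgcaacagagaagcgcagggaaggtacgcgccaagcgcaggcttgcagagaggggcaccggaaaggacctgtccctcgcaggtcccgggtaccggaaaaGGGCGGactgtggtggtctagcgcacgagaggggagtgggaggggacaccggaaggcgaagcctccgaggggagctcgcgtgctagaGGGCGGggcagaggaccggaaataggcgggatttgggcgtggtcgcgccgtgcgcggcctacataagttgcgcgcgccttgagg
Celf1: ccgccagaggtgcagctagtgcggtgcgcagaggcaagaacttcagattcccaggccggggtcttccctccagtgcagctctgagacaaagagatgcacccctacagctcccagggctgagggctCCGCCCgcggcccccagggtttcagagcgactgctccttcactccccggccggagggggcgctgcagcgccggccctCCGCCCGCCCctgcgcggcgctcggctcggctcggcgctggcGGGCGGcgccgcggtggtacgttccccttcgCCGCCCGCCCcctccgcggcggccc
G3bp1: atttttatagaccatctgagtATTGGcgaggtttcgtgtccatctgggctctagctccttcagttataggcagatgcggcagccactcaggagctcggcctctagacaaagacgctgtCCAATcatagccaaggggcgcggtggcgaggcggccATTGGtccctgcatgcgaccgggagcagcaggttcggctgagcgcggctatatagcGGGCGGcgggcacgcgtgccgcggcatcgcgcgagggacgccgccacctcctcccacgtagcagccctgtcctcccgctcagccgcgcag

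The G3bp1 promoter held 3 CCAAT boxes and 1 GC box at a GC content of 64.0%. The Caprin2 promoter held 2 GC boxes and no CCAAT box at a GC content of 66.7%, and the Celf1 promoter held 6 GC boxes, some of them overlapping, and no CCAAT box at a GC content of 74.3%. Across 32851 promoters of the same length, 35.7% held a GC box and 37.4% a CCAAT box, and the median GC content was 52.7%. A MAF element core (TGCTGA, in 19.5% of promoters), a heat shock element core (GAANNTTC, 7.86%), the core of the CLEAR element of lysosomal genes (CACGTG, 7.15%) and a SOX core (ACAAT, 31.0%) were also searched on both strands, and none of them was found in these 3 windows. These matches describe letters in the sequence and not bound factors.

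Fyco1, the gene named in the genotype label, lies on the minus strand of chromosome 9 (GRCm38, 123789500 to 123851899, ENSMUSG00000025241). Its transcript had 4.61, 4.59 and 4.87 FPKM in Fyco1-/- lenses A, B and C, against 5.40, 5.21 and 5.11 FPKM in WT lenses A, B and C. The 3 Fyco1-/- values lay below the 3 WT values, but the difference was not called (log2 fold change -0.15, SE 0.08, limma adjusted p = 0.273), so the level of the whole transcript does not check the genotype labels, and the gene values show no exon or allele. The libraries held an estimated 17.02 to 20.02 M reads, so that 1 read in a gene of 1 kilobase is worth 0.04996 to 0.0588 FPKM. Summed FPKM of 8 fibre markers were 184162 to 189647 in Fyco1-/- lenses and 178355 to 184351 in WT lenses. Summed FPKM of 8 epithelial markers were 486, 474 and 458 in Fyco1-/- lenses A, B and C. All lay below the 601, 590 and 544 of WT lenses A, B and C. Sfrp1 and Foxe3 made up most of every sum. Of the 8 markers, 7 had a negative log2 fold change, and 3 (Itga6, Sfrp1 and Pax6) were called lower. Gja1 went the other way, higher in Fyco1-/- lenses at an unadjusted limma p under 0.05, but was not called. Both marker lists were well above 0, as the labelled tissue requires. Markers of retina, cornea and conjunctiva and pigment cells summed to at most 2.38 FPKM in any library, with Krt12 and Pou4f2 not analysed here, and no marker in the table was listed at 0 in every library. Library WT B stood apart from WT A and WT C, with 40.7 FPKM summed over muscle markers and 25.2 over immune markers, against 5.81 to 7.22 and 1.77 to 2.04 in the other WT libraries and at most 3.74 and 2.01 in Fyco1-/- lenses. The immune sum of WT B was mostly 1 gene, Lyz2, at 23.1 FPKM. The other immune markers in WT B were Cd68 at 1.30, Csf1r at 0.742, Ptprc at 0.0768 and Aif1 at 0 FPKM. Blood markers summed to 241, 102 and 114 FPKM in Fyco1-/- lenses A, B and C. In WT lenses A, B and C they summed to 126, 81.4 and 195 FPKM. Endothelial and mesenchymal markers summed to 11.9 to 14.3 FPKM in Fyco1-/- lenses and 13.6 to 19.2 FPKM in WT lenses. The part of these markers in the values of the 10 genes was not tested beyond the fits without WT B. In bulk RNA, fewer cells of a type and less RNA per cell cannot be told apart.

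The 10 transcripts differed widely in level, with means of 4.17 FPKM for Stau2 to 462 FPKM for Tdrd7 in Fyco1-/- lenses and 4.26 to 432 FPKM in WT lenses, and their order was nearly the same in both genotypes. In Fyco1-/- lenses Tdrd7 and Caprin2 led, followed by Celf1 and Rbm24, then Caprin1, then Ddx6 and Rbm5, then G3bp1, Stau1 and Stau2. The libraries of Celf1 and Rbm24 overlapped there, as did those of Ddx6 and Rbm5. In WT lenses Rbm24 stood above Celf1 and Rbm5 above Ddx6 with no overlap, whereas Ddx6 and G3bp1 overlapped. All other neighbours in the order were apart in every library of the same genotype. Among all tested genes ranked by mean FPKM, Tdrd7 was 95th, Caprin2 119th, Rbm24 264th and Celf1 267th, while Stau2 was 6096th. The 10 genes together summed to 1223, 1207 and 1190 FPKM in Fyco1-/- lenses and 1135, 1137 and 1120 FPKM in WT lenses, and Tdrd7 and Caprin2 made up 69.3% to 71.6% of that sum in Fyco1-/- lenses and 67.8% to 68.9% in WT lenses.

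**Figure D1:**
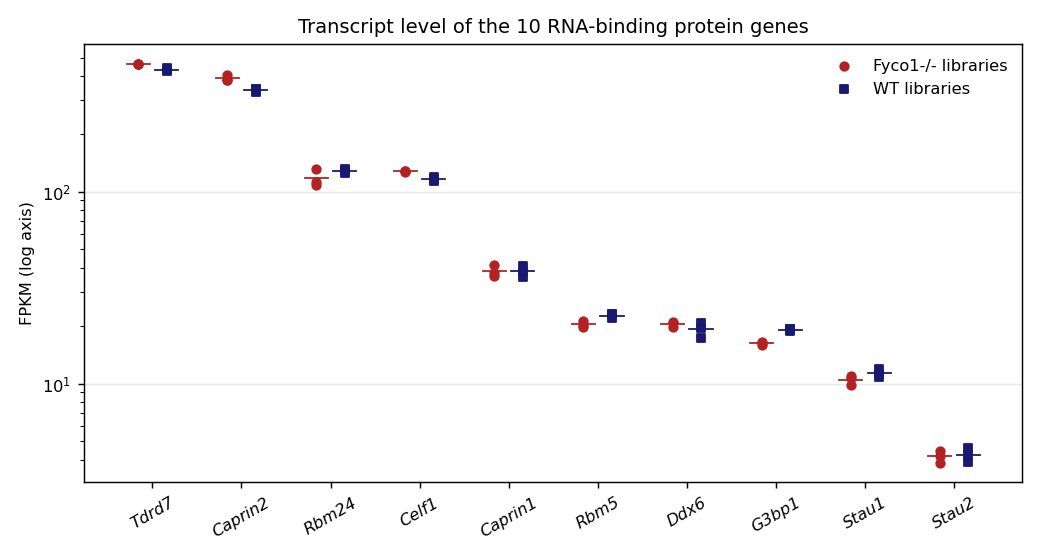
FPKM on a log axis of each of the 10 genes, with 1 point per library and a line at the mean of the 3 libraries, Fyco1-/- left of WT. Tdrd7 and Caprin2 lie above 330 FPKM in every library and Stau2 lies below 4.7 FPKM in every library.

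In Fyco1-/- lenses the transcripts of Caprin2 and Celf1 were higher and that of G3bp1 was lower, each by 10.2% to 15.01% of the WT level, and the other 7 did not pass the test. These 3 calls among 10 genes (limma, Benjamini-Hochberg adjusted p under 0.05 over all tested genes) stand beside 8.43% of the 12001 tested genes, of which 3.42% were called higher and 5.02% lower. Calls were more frequent among abundant genes, since 32.1% of genes with a mean of at least 100 FPKM and 13.9% of those with 10 to 100 FPKM were called. Of the 4 members of the first class 2 were called, and of the 5 members of the second class 1 was called. Libraries did not overlap between genotypes in 5 of the 10 genes, against 29.7% of all tested genes. In 3 of the 5 the Fyco1-/- libraries were higher, against 11.1% of all tested genes, and in 2 they were lower, against 18.6%. The median log2 fold change was -0.01 for the 10 genes and -0.04 for all tested genes. Of the 10 genes, 4 had an adjusted p under 0.05 in the authors' deposited table, against 9.37% of the 13066 genes with a value there.

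Caprin2 encodes an RNA-binding protein that is abundant in differentiating fibre cells and whose loss in the mouse lens disturbs lens and eye development. Its transcript (ENSMUSG00000030309, GRCm38 chromosome 6, 148842492 to 148896237, minus strand) was at 384, 403 and 380 FPKM in Fyco1-/- lenses A, B and C, against 344, 343 and 330 FPKM in WT lenses A, B and C. Every Fyco1-/- library was above every WT library. The means were 389 ± 12.5 FPKM in Fyco1-/- lenses and 339 ± 7.86 FPKM in WT lenses (SD, n = 3 each, as for every mean here), a rise of 14.7%. The log2 fold change was 0.20 (SE 0.04, 95% interval 0.12 to 0.28, limma adjusted p = 0.00756). Caprin2 was the only one of the 10 genes that stayed past the threshold under all 15 alternative settings (limma adjusted p 0.00480 to 0.0348), including 0.0209 without WT B. In the authors' deposited table its log2 fold change is 0.244 with an adjusted p of 1.61e-09.

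Tdrd7 encodes a Tudor domain protein of lens RNA granules, and its loss causes cataract in humans and mice. It was the most abundant of the 10 transcripts (ENSMUSG00000035517, GRCm38 chromosome 4, 45965334 to 46034761, plus strand). It measured 463, 461 and 461 FPKM in Fyco1-/- lenses A, B and C, against 426, 441 and 430 FPKM in WT lenses A, B and C. The groups did not overlap, and the Fyco1-/- libraries were nearly alike, with means of 462 ± 1.14 FPKM in Fyco1-/- lenses and 432 ± 7.67 FPKM in WT lenses. The log2 fold change of 0.10 (SE 0.03, 95% interval 0.03 to 0.16) did not pass the adjustment over all genes (limma adjusted p = 0.0736), nor did it under any of the 15 alternatives (0.0504 to 0.217). In the authors' deposited table the same gene has a log2 fold change of 0.143 with an adjusted p of 0.00398, so the call for Tdrd7 differs between the model on FPKM and the authors' model. Scaled by median of ratios, the FPKM of Tdrd7 gave a log2 fold change of 0.15, also not called (limma adjusted p = 0.0796). Under the same scaling the log2 fold changes of Caprin2, Celf1, Rbm24 and G3bp1 were 0.25, 0.19, -0.084 and -0.18, each within 0.01 of its value in the authors' deposited table.

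Celf1 encodes a regulator of splicing and of transcript decay that binds GU-rich elements, and its loss causes cataract in mice. Its transcript (ENSMUSG00000005506, GRCm38 chromosome 2, 90940382 to 91019497, plus strand) measured 129, 126 and 128 FPKM in Fyco1-/- lenses A, B and C, against 116, 113 and 119 FPKM in WT lenses A, B and C. The groups did not overlap, and the mean was 128 ± 1.53 FPKM in Fyco1-/- lenses and 116 ± 2.64 FPKM in WT lenses, a rise of 10.2%. The log2 fold change was 0.14 (SE 0.04, 95% interval 0.06 to 0.22, limma adjusted p = 0.0400). This call was lost when any 1 of the 6 libraries was left out (limma adjusted p 0.0527 to 0.128), under median-of-ratios scaling (0.0506), with quantile normalization (0.138) and with no filter on low values (0.0803), while the direction held in all 15 alternatives. In the authors' deposited table the log2 fold change of Celf1 is 0.185 with an adjusted p of 0.000733.

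Rbm24 encodes an RNA-binding protein that stabilises its target transcripts and is needed for eye development in zebrafish and mice. Its transcript (ENSMUSG00000038132, GRCm38 chromosome 13, 46418434 to 46431095, plus strand) measured 131, 109 and 113 FPKM in Fyco1-/- lenses A, B and C, against 130, 125 and 132 FPKM in WT lenses A, B and C. Fyco1-/- A lay within the WT range, and Fyco1-/- B and C lay below all WT libraries. The means were 118 ± 11.9 FPKM in Fyco1-/- lenses and 129 ± 3.30 FPKM in WT lenses, and the log2 fold change of -0.13 (SE 0.06, 95% interval -0.28 to 0.01) was not called (limma adjusted p = 0.236). Without Fyco1-/- A the log2 fold change was -0.21 and was called (limma adjusted p = 0.0162), so 1 library decides whether Rbm24 passes. In the authors' deposited table the log2 fold change is -0.08 with an adjusted p of 0.507.

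**Figure D2:**
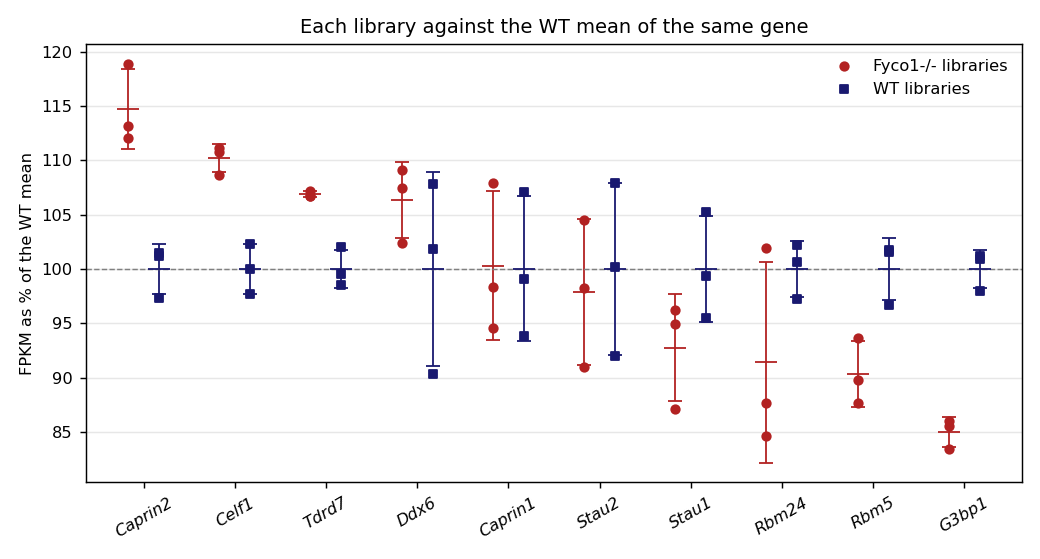
FPKM of each library as a percentage of the WT mean of the same gene, Fyco1-/- left of WT, with 1 point per library and the mean ± SD of 3 libraries. The Fyco1-/- points of Caprin2, Celf1 and Tdrd7 lie above all WT points, those of Rbm5 and G3bp1 lie below all WT points, and the other 5 genes overlap.

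Caprin1 and G3bp1 encode partner proteins that bind each other in the core of stress granules. Caprin1 (ENSMUSG00000027184, GRCm38 chromosome 2, 103762941 to 103797649, minus strand) was at 41.5, 36.4 and 37.8 FPKM in Fyco1-/- lenses A, B and C, against 41.2, 38.1 and 36.1 FPKM in WT lenses A, B and C. The groups covered nearly the same range, with a log2 fold change of 0.00 (SE 0.06, 95% interval -0.14 to 0.15, limma adjusted p = 0.978). The ratio of Caprin2 to Caprin1 averaged 10.1 ± 0.923 in Fyco1-/- lenses and 8.84 ± 0.422 in WT lenses. Every Fyco1-/- library (9.25, 11.1 and 10.05) had a higher ratio than every WT library (8.36, 9.01 and 9.16). The log2 difference was 0.19 (exact two-sided permutation p = 0.1, the smallest that 3 against 3 can give).

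G3bp1 (ENSMUSG00000018583, GRCm38 chromosome 11, 55469685 to 55504838, plus strand) measured 16.3, 16.4 and 15.9 FPKM in Fyco1-/- lenses A, B and C, against 19.3, 19.3 and 18.7 FPKM in WT lenses A, B and C. The groups did not overlap, and the gap between them was wider than the range within either. The means were 16.2 ± 0.262 FPKM in Fyco1-/- lenses and 19.1 ± 0.340 FPKM in WT lenses, which corresponds to a log2 fold change of -0.23 (SE 0.05, 95% interval -0.34 to -0.11, limma adjusted p = 0.0246). This call was lost without Fyco1-/- A, B or C (limma adjusted p 0.0506, 0.0640 and 0.0807) and without WT A or WT B (0.0806 and 0.0878), as well as with median-of-ratios scaling (0.0506) and with no filter (0.0545), while the direction held throughout. In the authors' deposited table G3bp1 has a log2 fold change of -0.181 with an adjusted p of 0.0104. A near-identical copy, Gm5913 (98.0% identity over 1399 bases), was listed at 0.0821 FPKM or less in every library, and 56 of the 7064 exon bases of G3bp1 are shared with the microRNA gene Mir7652.

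G3bp2, the paralog of G3bp1 and also a stress granule protein, measured 11.2 ± 0.334 FPKM in Fyco1-/- lenses and 11.5 ± 0.460 FPKM in WT lenses (log2 fold change -0.04, limma adjusted p = 0.723), although 2050 of its exon bases lie opposite the noncoding gene Gm26582. The ratio of G3bp1 to G3bp2 was 1.49, 1.496 and 1.38 in Fyco1-/- lenses A, B and C, against 1.60, 1.73 and 1.65 in WT lenses A, B and C. The ratio was thus lower in every Fyco1-/- library (log2 difference -0.19, exact two-sided permutation p = 0.1, the smallest possible). Both genes together summed to 27.3 to 27.5 FPKM in Fyco1-/- lenses and 30.1 to 31.3 FPKM in WT lenses.

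Ddx6 encodes a DEAD-box helicase that represses translation and is needed to form P-bodies. It measured 20.99, 20.7 and 19.7 FPKM in Fyco1-/- lenses A, B and C, against 20.7, 19.6 and 17.4 FPKM in WT lenses A, B and C (ENSMUSG00000032097, GRCm38 chromosome 9, 44604892 to 44640731, plus strand). The groups overlapped, and the log2 fold change of 0.09 (SE 0.07, 95% interval -0.07 to 0.24) was not called (limma adjusted p = 0.478). WT C was the lowest library, and without it the log2 fold change was 0.02.

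Stau1 and Stau2 encode double-stranded RNA-binding proteins that transport transcripts and, with Upf1, direct some of them to decay. Stau1 (ENSMUSG00000039536, GRCm38 chromosome 2, 166947549 to 166996299, minus strand) was at 10.9, 10.7 and 9.87 FPKM in Fyco1-/- lenses A, B and C, against 11.9, 10.8 and 11.2 FPKM in WT lenses A, B and C. Stau2 (ENSMUSG00000025920, GRCm38 chromosome 1, 16228674 to 16520112, minus strand) was at 4.45, 3.88 and 4.19 FPKM in Fyco1-/- lenses A, B and C, against 3.92, 4.27 and 4.60 FPKM in WT lenses A, B and C. Both overlapped between genotypes, and neither was called, with log2 fold changes of -0.10 for Stau1 (SE 0.07, 95% interval -0.26 to 0.05, limma adjusted p = 0.391) and -0.03 for Stau2 (SE 0.09, 95% interval -0.23 to 0.18, limma adjusted p = 0.891). The ratio of Stau1 to Stau2 was 2.45, 2.77 and 2.36 in Fyco1-/- lenses A, B and C and 3.04, 2.53 and 2.45 in WT lenses A, B and C. These ratios overlapped (log2 difference -0.08, exact two-sided permutation p = 0.6), and without WT A the difference was 0.02.

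Rbm5 encodes a regulator of alternative splicing that acts in the early spliceosome. It measured 21.2, 19.8 and 20.3 FPKM in Fyco1-/- lenses A, B and C, against 23.0, 23.0 and 21.9 FPKM in WT lenses A, B and C (ENSMUSG00000032580, GRCm38 chromosome 9, 107740371 to 107770996, minus strand). All Fyco1-/- libraries lay below all WT libraries, but the log2 fold change of -0.14 (SE 0.05, 95% interval -0.26 to -0.02) was not called (limma adjusted p = 0.130). Rbm5, Ddx6 and Fyco1 lie on the same chromosome, where 13.1% of 634 tested genes were called. In the authors' deposited table the adjusted p is 0.306 for Rbm5, 0.129 for Ddx6, 0.678 for Caprin1, 0.805 for Stau1 and 0.973 for Stau2.

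**Figure D3:**
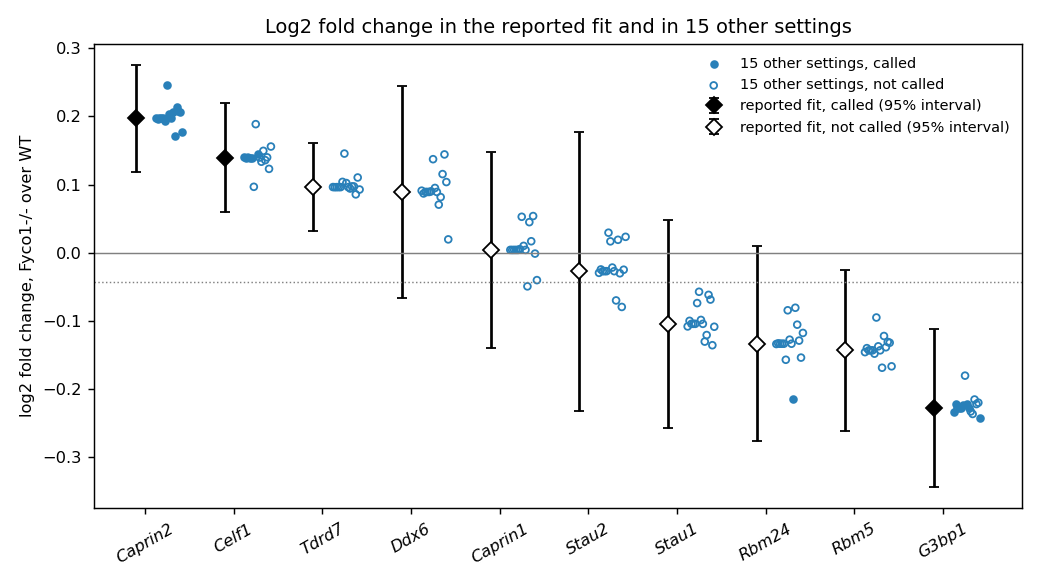
Log2 fold change of Fyco1-/- over WT for the 10 genes, with the 95% interval of the reported fit (diamonds) beside the values from 15 other settings (circles, filled where called). The dotted line is the median of all tested genes, and only Caprin2 is called in every setting.

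The list of paralogs of these genes gave no call. It also holds Mbnl1, Mbnl2 and Mbnl3, which belong to another family of RNA-binding proteins. Of 20 listed, 11 were expressed highly enough to be tested, Mbnl1 and Mbnl2 among them. None was called by limma, and the median log2 fold change was 0.01. An unadjusted p under 0.05 was found in 4 of the 11, all higher in Fyco1-/- lenses, and in 24.4% of all tested genes, with 9.32% higher and 15.1% lower. Tdrd3, a Tudor domain protein gene related to Tdrd7, measured 4.66 ± 0.269 FPKM in Fyco1-/- lenses and 3.78 ± 0.295 FPKM in WT lenses without overlap (log2 fold change 0.27, limma adjusted p = 0.0988). Ddx3x, a helicase gene, measured 60.3 ± 3.38 FPKM in Fyco1-/- lenses and 54.1 ± 3.25 FPKM in WT lenses (limma adjusted p = 0.127). Rbm38, the paralog of Rbm24, measured 26.3 ± 2.33 FPKM in Fyco1-/- lenses and 23.0 ± 1.47 FPKM in WT lenses (limma adjusted p = 0.146). Rbm6 and Rbm10, the paralogs of Rbm5, had log2 fold changes of 0.01 and -0.07 (limma adjusted p = 0.935 and 0.681). Celf2, the paralog of Celf1, measured 0.995 ± 0.0861 FPKM in Fyco1-/- lenses and 0.994 ± 0.0599 FPKM in WT lenses. It was thus present at a far lower level than Celf1 in both genotypes.

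Beyond the 10 genes, 8 lists of paralogs, granule, decay, microRNA and splicing genes held 142 tested genes, of which 4 were called higher and 5 lower (6.34% of them, against 8.43% of all tested genes), with a median log2 fold change of -0.03. Among 22 stress granule genes 2 were higher and 1 was lower. Pabpc1, the main cytoplasmic poly(A)-binding protein gene, measured 399.7, 380.3 and 392.4 FPKM in Fyco1-/- lenses A, B and C, against 295.6, 305.3 and 284.1 FPKM in WT lenses A, B and C. No library overlapped (log2 fold change 0.41, limma adjusted p = 0.000147), and the call held in all 15 alternatives. Fxr1, a relative of the fragile X protein, was higher at 37.2 ± 1.98 FPKM in Fyco1-/- lenses and 31.5 ± 1.62 FPKM in WT lenses (log2 fold change 0.23, limma adjusted p = 0.0337), and it shares 178 exon bases with Dnajc19 on the other strand. Tia1, a stress granule nucleator gene, was lower at 13.5 ± 0.497 FPKM in Fyco1-/- lenses and 16.7 ± 1.12 FPKM in WT lenses (log2 fold change -0.29, limma adjusted p = 0.0238), and 352 of its exon bases are shared with Gm44790. Without WT B only Pabpc1 of these 3 was called.

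Of 17 P-body and decapping genes 1 was called. Lsm14a, whose product binds Ddx6 in P-bodies, was lower at 17.8 ± 1.47 FPKM in Fyco1-/- lenses and 21.3 ± 0.394 FPKM in WT lenses (log2 fold change -0.26, limma adjusted p = 0.0375), and 344 of its exon bases lie opposite Gm12764. None of 18 genes of the deadenylation complexes was called by limma, and 3 (16.7%) had an unadjusted p under 0.05, all lower in Fyco1-/- lenses, against 15.1% of all tested genes that were lower at that level. The lowest adjusted p values of that list were those of Btg1 (log2 fold change -0.26, limma adjusted p = 0.0708), whose product recruits a deadenylase and which was called lower in 2 of the 15 alternatives (lowest limma adjusted p = 0.00900, without WT C), and Parn (log2 fold change -0.22, limma adjusted p = 0.144), which encodes one.

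Of 11 genes of Staufen-mediated and nonsense-mediated decay 1 was called (9.09%, against 8.43% of all tested genes). The median log2 fold change of the 11 was 0.03, and 7 of them were positive. At an unadjusted limma p under 0.05, 2 were higher and only Upf3b was lower. Upf3b, which encodes a factor that links exon junctions to nonsense-mediated decay, measured 23.6, 22.4 and 23.3 FPKM in Fyco1-/- lenses A, B and C, against 29.05, 30.2 and 30.4 FPKM in WT lenses A, B and C. The groups stood far apart (log2 fold change -0.36, limma adjusted p = 0.00165), and the call held in all 15 alternatives. Of 13 microRNA pathway genes 2 were called lower (15.4%, against 5.02% of all tested genes) and 0 higher. At an unadjusted limma p under 0.05, however, 3 of the 13 were higher and 2 were lower. These shares were 23.1% and 15.4%, against 9.32% and 15.1% of all tested genes, and the list median log2 fold change was -0.01. Prkra, which encodes a Dicer partner, measured 3.81 ± 0.287 FPKM in Fyco1-/- lenses and 5.29 ± 0.5003 FPKM in WT lenses (log2 fold change -0.43, limma adjusted p = 0.0230). Ago1, an Argonaute gene, measured 11.5 ± 0.682 FPKM in Fyco1-/- lenses and 14.02 ± 0.560 FPKM in WT lenses (log2 fold change -0.28, limma adjusted p = 0.0284).

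Of 26 tested regulators that bind AU-rich elements or 3′ untranslated regions 1 was called. Pcbp4, a poly(C)-binding protein gene, measured 76.2, 69.5 and 65.1 FPKM in Fyco1-/- lenses A, B and C, against 49.7, 53.6 and 53.3 FPKM in WT lenses A, B and C. The call (log2 fold change 0.42, limma adjusted p = 0.00203) held in all 15 alternatives, and 51 of its exon bases are shared with Gpr62. Pcbp4 lies on chromosome 9 (GRCm38, 106453291 to 106464012), as does Fyco1, and 13.1% of 634 tested genes of that chromosome were called. The part of this position in the Pcbp4 values was not tested. Of 25 tested splicing regulators only U2af1, which encodes the splice acceptor-binding subunit of U2AF, was called. It measured 89.7 ± 4.95 FPKM in Fyco1-/- lenses and 76.9 ± 4.84 FPKM in WT lenses (log2 fold change 0.22, limma adjusted p = 0.0389), and its copy Gm10232 (99.7% identity over 720 bases) was listed at 0.365 to 0.884 FPKM in Fyco1-/- lenses and 0.553 to 0.718 FPKM in WT lenses. The median log2 fold change was -0.05 in each of these lists. Fxr1, Tia1, Lsm14a, Prkra, Ago1 and U2af1 each lost their call in 5 to 7 of the 15 alternatives.

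**Figure D4:**
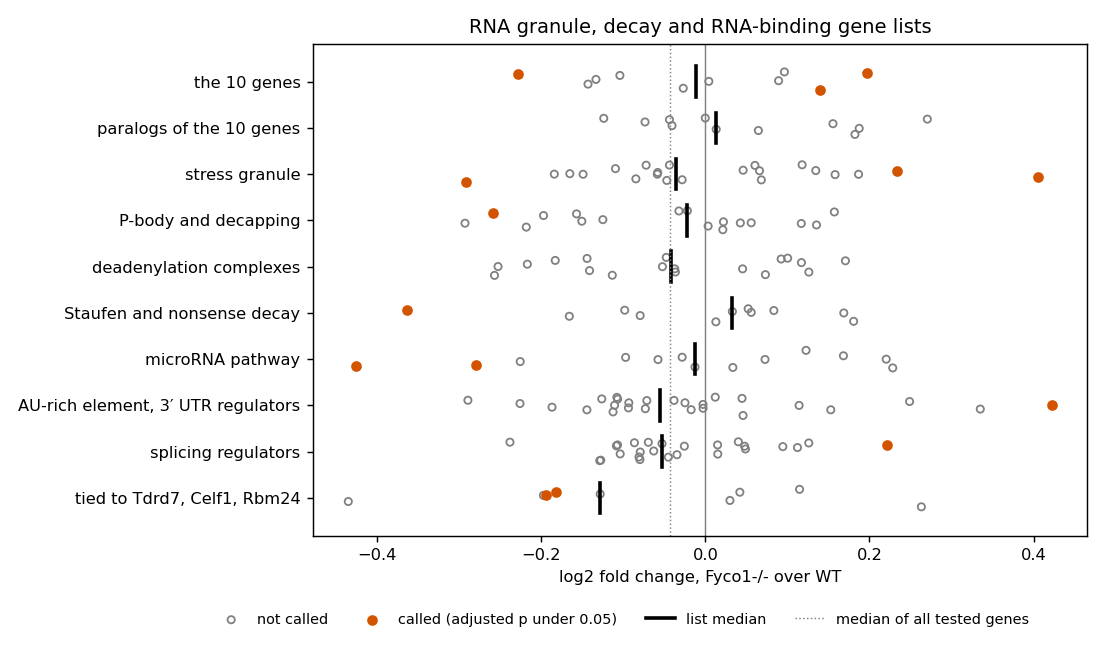
Log2 fold change of Fyco1-/- over WT for every tested gene of each list (1 circle per gene, filled where the limma adjusted p was under 0.05), with the list median as a black bar and the median of all tested genes as a dotted line. Calls are scattered over both directions, and the list medians lie between -0.13 and 0.03.

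The transcripts tied to Tdrd7, Celf1 or Rbm24 by earlier work on these proteins form a list of 9, all tested, of which 2 were called lower by limma, against 5.02% of all tested genes, with a median log2 fold change of -0.13. Both called genes, Prox1 and Pax6, had means of 10 to 100 FPKM, where 13.9% of tested genes were called in either direction. At an unadjusted p under 0.05 there were 4 of the 9, all of them lower, against 15.1% of all tested genes. Prox1, the homeobox gene of fibre differentiation, measured 76.6, 77.3 and 78.5 FPKM in Fyco1-/- lenses A, B and C, against 89.1, 87.2 and 87.8 FPKM in WT lenses A, B and C. The groups were well apart (log2 fold change -0.18, limma adjusted p = 0.0131), and the call was lost with median-of-ratios scaling (log2 fold change -0.13, limma adjusted p = 0.115) and without WT A (0.0582). Prox1 shares 133 exon bases with Prox1os on the other strand. Pax6, a master regulator of eye development and a marker of lens epithelium, measured 32.3, 32.1 and 31.1 FPKM in Fyco1-/- lenses A, B and C, against 37.4, 37.5 and 34.6 FPKM in WT lenses A, B and C. No library overlapped (log2 fold change -0.19, limma adjusted p = 0.0398). The call was lost without each library but WT C (limma adjusted p 0.0628 to 0.134), under median-of-ratios scaling (0.0672) and with no filter (0.0923). Pax6 is also 1 of the 8 epithelial markers given above, whose sum was lower in Fyco1-/- lenses, and the part of that difference in the Pax6 and Sox2 values was not tested.

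Sox2, whose transcript Rbm24 stabilises in the developing eye, measured 11.4 ± 0.182 FPKM in Fyco1-/- lenses and 13.1 ± 0.503 FPKM in WT lenses without overlap, but was not called (log2 fold change -0.20, limma adjusted p = 0.0741). Dnase2b, the nuclease gene of fibre nuclear breakdown and a target of Celf1 in mice, measured 45.0 ± 2.76 FPKM in Fyco1-/- lenses and 41.5 ± 1.81 FPKM in WT lenses (limma adjusted p = 0.242). Cdkn1b and Cdkn1a, which encode cell cycle inhibitors under Celf1 control in mouse lens, had log2 fold changes of -0.13 and -0.44 (limma adjusted p = 0.410 and 0.114), and Cdkn1a was near the filter at 0.483 ± 0.0580 FPKM in Fyco1-/- lenses and 0.834 ± 0.163 FPKM in WT lenses. The genes tied to Tdrd7 in mouse lens were not called either. The heat shock protein gene Hspb1 measured 164 ± 22.7 FPKM in Fyco1-/- lenses and 136 ± 19.7 FPKM in WT lenses, Crybb3 had a log2 fold change of 0.03, and the receptor gene Epha2 had one of 0.04 (limma adjusted p = 0.311, 0.409 and 0.823). Crybb3 was called higher in 1 of its 14 alternatives, quantile normalization (log2 fold change 0.13, limma adjusted p = 0.00154).

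Over all tested genes 40.5% of the calls were higher in Fyco1-/- lenses, and with median-of-ratios scaling 57.0% were, so the balance of directions depends on the scaling. The direction of Caprin2, Tdrd7, Celf1, Ddx6, Stau1, Rbm24, Rbm5 and G3bp1 was the same in all 15 alternatives, whereas the log2 fold changes of Caprin1 and Stau2, both near 0, changed sign in some of them.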

How the data were processed

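Total RNA of mouse lenses was sequenced in 6 libraries, 3 per genotype. Per the submitters' processing notes, reads were aligned to GRCm38 with STAR 2.5 and counted per gene with HTSeq 0.6.1, and the authors deposited FPKM values per library. Which annotation and strand setting were used is not given in the sources used here, so overlapping genes on opposite strands cannot be told apart. From DESeq2 the authors also deposited log2 fold changes, p-values and adjusted p-values, which were copied for the 10 genes and not recomputed. No count table was used.

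The two-sided test was that of limma 3.58.1 (R 4.3.3), fitted to log2(FPKM + 0.5) of all genes whose mean reached 0.5 FPKM. Its only term was genotype, and its moderation was robust and followed the trend with level. A log2 fold change on the log2(FPKM + 0.5) scale understates the change of a low gene. P-values were adjusted by Benjamini-Hochberg over all 12001 tested genes and called under 0.05. Ratios of paralogs were compared by exact permutation, 3 ratios in all, with no adjustment since none can go below 0.1.

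Read totals were worked out from the spacing of low FPKM values, of which 54.5% to 56.3% lay within 0.05 of a whole read, too few to recover counts, so no counting intervals are given. Positions and exons are from GENCODE M21, where 93.3% of symbols matched 1 gene, and 21 symbols occur more than once. Copies were searched with blastn 2.17.0 (95% identity or more over at least 300 bases). Besides those given above, copies at other loci were found for Hspb1, Btg1 and Rbm10, and further ones for U2af1 (AC102268.2 and Gm18959). The copies of Hspb1 were Gm9817 and Hsp25-ps1, of which Hsp25-ps1 was listed at 0.0985 FPKM or less in every library. The part of these copies in the gene values was not tested.

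The rule for the 10 genes names symbols and no measured value, but these genes, the gene lists and the tests were chosen with earlier results of these data known. Named are the 10 genes, Fyco1, up to 3 called genes of each list by p (or the 2 of lowest p), all tested transcripts tied to Tdrd7, Celf1 or Rbm24, and 5 paralogs. Alternatives were other pseudocounts (0.1 and 1), filters, moderation and scalings, a replicate block, and fits that omit 1 library each.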

Additional observations from a re-analysis of the deposited data

How the results depend on the processing

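Directions held for 8 of the 10 genes in all 15 alternatives. The call of Celf1 was lost with no filter on low values (log2 fold change 0.14), with quantile normalization (0.10), with median-of-ratios scaling (0.19) and when a library was left out (0.12 to 0.16). That of G3bp1 was lost with no filter (-0.23), with median-of-ratios scaling (-0.18) and without any library but WT C (range over the 6 libraries -0.24 to -0.22). Rbm24 ranged from -0.21 to -0.081 as libraries were left out and was called only without Fyco1-/- A. The log2 ratio of Stau1 to Stau2 ranged from -0.15 to 0.017 and was positive only without WT A. The causes were not tested.

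Of the 10 genes, 1 was called higher with no filter, with quantile normalization, with median-of-ratios scaling and without each library. The number called lower was 0 with no filter and with median-of-ratios scaling, and 0 to 1 as libraries were left out. Over all genes, 246 were called higher and 322 lower with no filter, 625 higher with median-of-ratios scaling, and 268 to 332 higher and 325 to 541 lower as libraries were left out. Of the 142 listed RNA-binding and decay genes, 2 were called higher and 1 lower with no filter, 9 higher and 3 lower with median-of-ratios scaling, and 2 to 3 higher and 1 to 5 lower as libraries were left out. With no filter more genes are tested.

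Libraries with the same letter did not deviate together (correlations -0.03 for A, 0.03 for B and 0.03 for C). These correlations gave no sign that the letters pair samples. They cannot exclude pairing, on which the labels are silent. With the letter as a replicate block, Celf1 kept its log2 fold change of 0.14 but lost its call (limma adjusted p = 0.0677), which left 1 of the 10 genes called higher and 2 of the listed genes called higher, those losing their call being Fxr1 and U2af1. Over all genes the replicate block gave 367 calls higher and 562 lower. With 3 pools per genotype and read totals known only as estimates, no counting error can be given for any gene.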
